A study of Mus musculus with 16 samples.

Results

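The comparison described here is between IL-31RA knockout and wildtype lungs after bleomycin. Its members were chosen by their labels alone and are 8 of the 16 RNA-seq libraries of the series, 4 from knockout lungs (KO-Bleo, replicates 13 to 16) and 4 from wildtype lungs (WT-Bleo, replicates 5 to 8), with all 16380 listed genes. The mice were on a C57BL/6 background, and the knockout mice carried, in every cell, a homozygous deletion of exons 4 to 6 of Il31ra (IL-31RA-/-) while the wildtype mice were their littermates. Both groups received intradermal bleomycin, an antitumour drug that causes DNA breaks and is used to model lung fibrosis, at a dose of 6 U/kg that was given 5 days a week during 4 weeks, and RNA of the whole lung was taken on day 28. The methods give ages of 10 to 18 weeks and both sexes for all experiments, without saying which library came from which sex or whether a library came from 1 mouse or several. The other 8 libraries came from wildtype (WT-Sal) and knockout (KO-Sal) lungs given saline, 4 each, and serve here only to show the genotype difference without bleomycin.

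IL-31RA is the ligand-specific chain of the receptor for interleukin 31, a cytokine made mainly by type 2 helper T cells, and it signals together with the oncostatin M receptor chain (Osmr) through JAK kinases and STAT factors. In a fibrotic lung, activated fibroblasts lay down collagen, elastin and fibronectin and cross-link them, while the epithelium of the air sacs is injured. Alveolar type 2 cells make surfactant, a film of phospholipid and protein that keeps the air sacs open, store it in lamellar bodies, and also renew the thin alveolar type 1 cells. Surfactant lipid draws on the cell's own synthesis of fatty acids, phospholipid and cholesterol.

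Genes of surfactant production and of cholesterol synthesis were the 2 lists with the most members higher in KO-Bleo, so promoter sequence is shown for 4 of these genes. The sequences are the 250 bases before the annotated start of the gene, from RefSeq on build GRCm38.p6, plus strand, and capitals mark the motif named for each. In Sftpa1 (chr14:41131538-41131787) and Abca3 (chr17:24351773-24352022) the capitals mark CTCAAG, the core of sites bound by the lung factor NKX2-1, and TCACNCCAC, a form of the sterol regulatory element.
Sftpa1: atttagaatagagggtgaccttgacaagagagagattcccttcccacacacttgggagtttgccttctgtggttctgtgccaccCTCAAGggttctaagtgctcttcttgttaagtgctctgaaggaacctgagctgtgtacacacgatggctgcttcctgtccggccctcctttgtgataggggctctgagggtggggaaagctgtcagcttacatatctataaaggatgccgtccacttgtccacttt
Abca3: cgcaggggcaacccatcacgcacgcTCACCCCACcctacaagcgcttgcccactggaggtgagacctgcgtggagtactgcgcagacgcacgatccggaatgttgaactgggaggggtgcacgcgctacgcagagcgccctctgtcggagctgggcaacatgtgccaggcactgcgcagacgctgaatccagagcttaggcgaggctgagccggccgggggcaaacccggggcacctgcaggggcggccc
In Idi1 (chr13:8885356-8885605) and Hmgcs1 (chr13:119690101-119690350) they mark ATTGG, the CCAAT box read on the other strand, and in Hmgcs1 also TCACNCCAC. The Idi1 sequence also holds CTCAAG, which is left in lower case there.
Idi1: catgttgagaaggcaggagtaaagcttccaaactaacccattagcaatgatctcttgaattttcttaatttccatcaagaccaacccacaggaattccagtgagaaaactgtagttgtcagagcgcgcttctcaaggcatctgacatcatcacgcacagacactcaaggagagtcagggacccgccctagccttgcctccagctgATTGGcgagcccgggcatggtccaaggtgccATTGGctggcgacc
Hmgcs1: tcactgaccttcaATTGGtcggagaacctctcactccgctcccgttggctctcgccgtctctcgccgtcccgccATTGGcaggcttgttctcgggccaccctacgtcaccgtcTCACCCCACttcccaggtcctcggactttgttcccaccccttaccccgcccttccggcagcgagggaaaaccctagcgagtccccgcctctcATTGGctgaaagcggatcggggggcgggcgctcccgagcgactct

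In all, 12 motifs were searched on both strands of windows of 300 bases (250 before to 50 after the start), several of them nested in each other. RefSeq windows were matched for 13 of the 17 alveolar type 2 genes, for 16 of the 23 cholesterol genes and for 26 of the 35 genes called below. Shares of all, here and below, are over the 27025 genes with a RefSeq window, which include genes not listed in the expression data. ATTGG was present in all 16 matched cholesterol windows, in 4 of the 13 alveolar type 2 windows and in 41.1% of all. CTCAAG was present in 4 of the 13 alveolar type 2 windows, in 4 of the 16 cholesterol windows and in 18% of all. TCACNCCAC was held by 1 window in each of the 2 lists, those of Abca3 and Hmgcs1, and by 1.44% of all. TCACCCCAC, the form found in both, was in 0.614% of all. The other motifs searched were CTNAAG (49.2% of all), CACTCAAG (1.68%), GGCGCC (13.4%), TGGCGCC (4.66%), GTCTAGAC (0.248%), CAGCCAAT (4.42%), GCCNCGGCG (3.38%) and TTNNGCAAT (2.51%). A match is a run of letters in a window, and binding was not measured.

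Expression is given as RPKM, the reads of a gene scaled to its length and to the depth of the library. Values with ± are the mean and SD (n = 4 libraries). Whole reads could be recovered from the values of all 16380 genes, and total reads were 12695517 to 32153938 in 3 WT-Bleo libraries and 18711732 to 21810789 in 3 KO-Bleo libraries. WT-Bleo replicate 6 held only 604136 reads, with 2089 genes at 0, and KO-Bleo replicate 15 only 1234598, with 1208 genes at 0, so each group has 1 shallow library and low genes rest on few reads there. Il31ra itself was at 0.15, 0, 0.0932 and 0.201 RPKM in the 4 WT-Bleo libraries and at 0.0432, 0.0874, 0.441 and 0.112 RPKM in the 4 KO-Bleo libraries. These values come from a handful of reads, the groups overlapped, and reads over the whole gene also count exons outside the deletion, so they give no check of the genotype at this depth (log2 fold change 0.07, adjusted p = 0.838). In the saline libraries, none of them shallow, Il31ra was at 0.185 ± 0.0578 RPKM in WT-Sal and 0.0403 ± 0.00793 RPKM in KO-Sal, without overlap (log2 fold change -0.19, unadjusted p = 0.00424, adjusted p = 0.114), which is the direction of the labels. Osmr, the partner chain, was at 34.2 ± 3.32 RPKM in WT-Bleo and 34.6 ± 4.31 RPKM in KO-Bleo (log2 fold change 0.01, adjusted p = 0.973). Sftpc, a marker specific to lung, was at 9347 RPKM or more in every library, and Xist, an RNA made where a second X chromosome is silenced and looked at after other values were seen, was at 53.3, 51.9, 60.3 and 56.4 RPKM in WT-Bleo and at 63.6, 60.8, 68 and 53.3 in KO-Bleo. Stress-related lists were lower in part in KO-Bleo, with 6 of 21 immediate early genes and 5 of 20 p53 targets lower at an unadjusted p under 0.05 and none higher. Their part in the results was not tested. Dram1, a p53-induced gene that was called higher in KO-Bleo and is described below, is not on the list of p53 targets.

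Differences were tested by limma on log2(RPKM + 1), with log2 fold changes given as KO-Bleo minus WT-Bleo and with Benjamini-Hochberg adjustment across the 16380 genes. At an adjusted p under 0.05, 35 genes were called, or 0.214% of all, of which 20 rose and 15 fell in KO-Bleo relative to WT-Bleo. All 35 had groups that did not overlap (8.48% of all genes did), which follows in large part from selecting them by p in the same libraries. The sizes of the 35 changes ranged from 1.31-fold to 6.48-fold on the log2(RPKM + 1) scale, which understates the change of low genes. At an unadjusted p under 0.05, KO-Bleo was higher for 784 genes (4.79%) and lower for 1041 (6.36%), and 207 genes (1.26%) also reached 1.5-fold. Limma-voom on the recovered reads called 583 genes (3.56%), the 35 among them, with 288 higher and 295 lower. The calls depend on single libraries: no gene was called when WT-Bleo 5, WT-Bleo 7, KO-Bleo 13 or KO-Bleo 14 was dropped, 4 were called without WT-Bleo replicate 8, all among the 35, and 8 without KO-Bleo replicate 15, 7 of them among the 35. Genes at an unadjusted p under 0.05 numbered 1334 to 1876 when 1 library was left out. Those 8 fits reuse most of the libraries that selected the 35 genes, and in each of them all 35 kept their direction, with an unadjusted p of at most 0.000551. Since the sources do not say that the libraries came from separate mice, the p-values measure the spread between libraries, which may be technical in part.

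**Figure D1:**
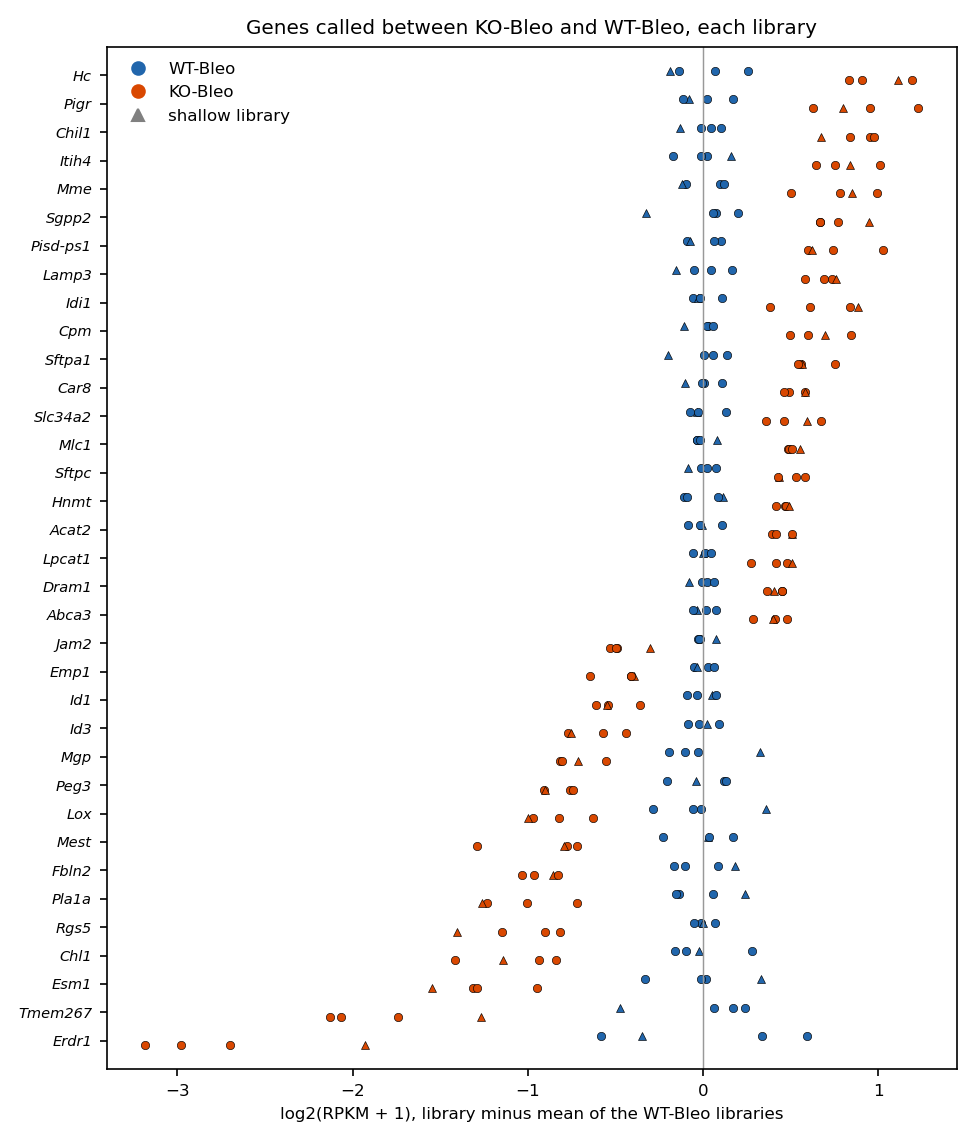
Each row is 1 of the 35 genes called between KO-Bleo (orange) and WT-Bleo (blue), and each point is 1 library, placed by its log2(RPKM + 1) minus the mean of the 4 WT-Bleo libraries; triangles are the shallow libraries, WT-Bleo replicate 6 and KO-Bleo replicate 15. The 20 genes in the upper rows are higher and the 15 in the lower rows are lower in every KO-Bleo library than in any WT-Bleo library.

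The genes of alveolar type 2 cells formed the most uniform group. Of the 17 listed, all 17 were higher in KO-Bleo at an unadjusted p under 0.05, where 4.79% of all genes were, and 8 were called. This list and those below were chosen with earlier results of these data known, so such shares are no independent evidence. The median log2 fold change of the 17 genes was 0.42, beside 0.01 over all genes, and the groups did not overlap for 16 of the 17. Limma-voom called 16 of them. The 16 alternatives to the fit reuse these libraries, and under each of them all 17 stayed higher at an unadjusted p under 0.05. The number called ranged from 0 to 16. In bulk lung RNA, fewer cells of a type and less RNA in each of those cells cannot be told apart.

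Among the surfactant proteins, Sftpc, the small hydrophobic protein made only by type 2 cells in the adult lung, was at 9823, 9347, 10075 and 10407 RPKM in WT-Bleo and at 14797, 14294, 13356 and 13327 RPKM in KO-Bleo. The highest WT-Bleo library lay below the lowest KO-Bleo library, and the rise was 1.41-fold (log2 fold change 0.49, SE 0.06, adjusted p = 0.0184). Sftpa1, a collectin that binds microbes and lipid, was at 775, 648, 746 and 819 RPKM in WT-Bleo and at 1096, 1253, 1101 and 1085 RPKM in KO-Bleo, again without overlap (log2 fold change 0.60, SE 0.08, adjusted p = 0.025). Replicate 14 was the high one among the 4 KO-Bleo values. Sftpb, which spreads the lipid film, and Sftpd, another collectin, are given as further members of the list and were chosen after their values were seen. Sftpb was at 867 ± 64.4 RPKM in WT-Bleo and 1091 ± 66.6 in KO-Bleo, with groups that did not overlap, and missed the threshold (adjusted p = 0.101; limma-voom adjusted p = 0.00386). Sftpd was at 629.9 ± 49.1 RPKM in WT-Bleo and 775 ± 96.2 in KO-Bleo, with groups that overlapped (adjusted p = 0.287; limma-voom adjusted p = 0.039).

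Genes for making and storing surfactant lipid rose with them. Lamp3, a membrane protein of lamellar bodies, was at 166, 154, 177 and 193 RPKM in WT-Bleo and at 287, 278, 291 and 258 RPKM in KO-Bleo. The highest WT-Bleo library lay below the lowest KO-Bleo library, and the rise was 1.61-fold (log2 fold change 0.69, SE 0.08, adjusted p = 0.0184). Abca3, the transporter that loads phospholipid into lamellar bodies, was at 58.5, 54.1, 53.1 and 56.1 RPKM in WT-Bleo and at 74, 77.6, 73.5 and 67.7 in KO-Bleo (log2 fold change 0.39, SE 0.06, adjusted p = 0.0445). Lpcat1, which remodels phosphatidylcholine into the saturated form of surfactant, was at 86.3, 89.7, 90.5 and 92.7 RPKM in WT-Bleo and at 120.05, 126, 128 and 109 in KO-Bleo (log2 fold change 0.42, SE 0.06, adjusted p = 0.0396). Neither gene's groups overlapped, and the lowest KO-Bleo library was replicate 16 for both. Slc34a2, the phosphate transporter that clears phosphate released from surfactant lipid, was at 322, 331, 332 and 371 RPKM in WT-Bleo and at 466, 539, 509.99 and 433 in KO-Bleo (log2 fold change 0.52, SE 0.08, adjusted p = 0.0454).

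The other 2 called members of the list are secreted proteins. Chil1, a chitinase-like protein without enzyme activity, was at 365, 322, 351 and 379.8 RPKM in WT-Bleo and at 685, 634, 565 and 695 in KO-Bleo, a 1.81-fold rise (log2 fold change 0.86, SE 0.08, adjusted p = 0.0184). Hc, complement component C5, was at 74.1, 71.4, 85.6 and 97.6 RPKM in WT-Bleo and at 154, 188, 177 and 146 in KO-Bleo, a 2.01-fold rise (log2 fold change 1.01, SE 0.11, adjusted p = 0.0184). For both genes every KO-Bleo library lay above every WT-Bleo library. Hc was the only called gene among 30 of complement and coagulation, of which 3 were higher and 14 lower at an unadjusted p under 0.05. With both shallow libraries left out, 4 of the 8 (Chil1, Lamp3, Hc and Sftpa1) remained called. Sftpc was then at a log2 fold change of 0.48 (adjusted p = 0.0643), Slc34a2 at 0.49 (0.0608), Lpcat1 at 0.39 (0.0519) and Abca3 at 0.38 (0.0536).

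**Figure D2:**
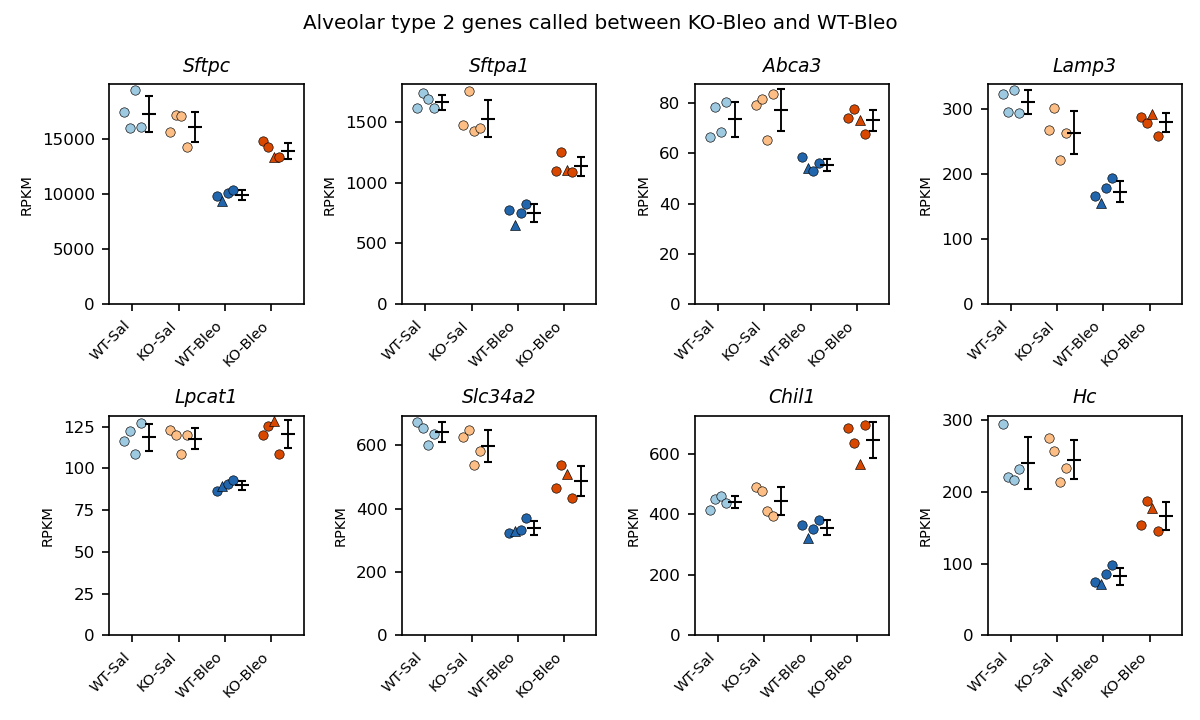
RPKM of the 8 alveolar type 2 genes called between KO-Bleo and WT-Bleo in all 16 libraries, with points for libraries, triangles for the 2 shallow ones, and bars for the mean and SD of 4 libraries; every axis starts at 0. In each panel the 4 KO-Bleo libraries lie above the 4 WT-Bleo libraries, while WT-Sal and KO-Sal overlap.

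Under saline the same contrast of genotypes, in 8 libraries that the bleomycin comparison does not use, gave a median log2 fold change of -0.01 over the 17 genes. None was higher at an unadjusted p under 0.05, where 1809 of all genes were (16.2% passed in either direction), and 1, Lamp3, was lower (309.5 ± 18.3 RPKM in WT-Sal and 263 ± 33.1 RPKM in KO-Sal; unadjusted p = 0.0258, adjusted p = 0.231). The test of whether the genotype difference under bleomycin differs from that under saline, which shares the bleomycin libraries, called 36 genes in all (0.220%), 6 of the 17 alveolar type 2 genes among them. Those 36 are sensitive to single libraries, since 3 to 60 were called with 1 library left out, 3 of them in each fit that dropped WT-Sal 4, WT-Bleo 5, KO-Sal 11 or KO-Bleo 15. The 6 were Chil1 (interaction 0.86 on the log2 scale, adjusted p = 0.0118), Lamp3 (0.93, 0.0118), Hc (0.98, 0.0329), Sftpa1 (0.73, 0.024), Sftpc (0.60, 0.0369) and Slc34a2 (0.62, 0.0329). Sftpc stood at 17288 ± 1601 RPKM in WT-Sal and 16069 ± 1375 RPKM in KO-Sal, so the KO-Bleo mean of 13943 lay between the WT-Bleo mean of 9913 and the saline means. Hc was at 241 ± 36.4 RPKM in WT-Sal and at 245 ± 27.2 RPKM in KO-Sal, above both bleomycin groups. Chil1 was at 440.4 ± 19.9 RPKM in WT-Sal and at 442 ± 46.5 RPKM in KO-Sal, so that its KO-Bleo mean of 645 was the highest of the 4 groups.

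Markers of neighbouring cell types moved less evenly. The mean log2 level of the 17 alveolar type 2 genes was 8.95 to 9.06 in the KO-Bleo libraries and 8.43 to 8.63 in the WT-Bleo libraries, which did not overlap. That of the 14 alveolar type 1 genes was 7.34 to 7.49 in KO-Bleo and 7.43 to 7.48 in WT-Bleo, with 2 members lower and none higher at an unadjusted p under 0.05. The 16 alveolar macrophage genes ranged over 4.37 to 4.54 in KO-Bleo and 3.85 to 4.29 in WT-Bleo, with 6 higher and 0 lower at an unadjusted p under 0.05, 0 called by limma and 3 by limma-voom. Marco, a scavenger receptor of these macrophages, was at 12.6, 4.17, 11.9 and 17.4 RPKM in WT-Bleo and at 22.8, 23.4, 17.9 and 21.1 RPKM in KO-Bleo (adjusted p = 0.312), its lowest value being that of the shallow replicate 6. The 15 genes of transitional epithelium, the cells that type 2 cells pass through after injury, were all 15 at negative log2 fold changes, with 8 lower and 0 higher at an unadjusted p under 0.05, 0 called by limma and 6 by limma-voom (median -0.26 under bleomycin and 0.06 under saline). Cldn4, a tight junction protein of that state, was at 25.2, 20.1, 21.8 and 21.5 RPKM in WT-Bleo and at 16, 10.4, 15.2 and 13 in KO-Bleo, without overlap (log2 fold change -0.67, SE 0.13, adjusted p = 0.0801). The part that numbers of cells of each type take in these values was not tested.

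Cholesterol synthesis was the second group. Of 23 listed genes of the pathway and its regulation, 17 had a higher level in KO-Bleo and 0 a lower one at an unadjusted p under 0.05, the groups of 15 did not overlap, and the median log2 fold change was 0.29. Only Idi1 was called by limma, and limma-voom called 11. Idi1, the isomerase that makes the reactive isoprene unit, was at 33.9, 34.6, 38.1 and 34.8 RPKM in WT-Bleo and at 54.5, 64, 66.1 and 46.3 in KO-Bleo, a 1.6-fold rise (log2 fold change 0.68, SE 0.11, adjusted p = 0.0488). The 4 WT-Bleo values lay within 5 RPKM of each other, whereas the KO-Bleo values spread from replicate 16 up to replicate 15. With both shallow libraries left out Idi1 was at a log2 fold change of 0.60 with an adjusted p of 0.0519, and none of the 23 was called. Acat2, the thiolase that joins acetyl-CoA units at the start of the pathway and is not on the list, was at 10.4, 9.56, 9.45 and 8.97 RPKM in WT-Bleo and at 12.9, 13.2, 14 and 14 in KO-Bleo, without overlap (log2 fold change 0.46, SE 0.07, adjusted p = 0.0488).

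Downstream of Idi1, Fdps, which condenses isoprene units, was at 30.7 ± 4.03 RPKM in WT-Bleo and 46.1 ± 5.98 in KO-Bleo (adjusted p = 0.0888; limma-voom adjusted p = 0.00534). Sqle, the epoxidase that commits squalene to sterol, was at 20.8 ± 1.54 RPKM in WT-Bleo and 27.1 ± 1.97 in KO-Bleo (adjusted p = 0.0993; limma-voom adjusted p = 0.0112). Msmo1, a demethylase of later sterols, was at 29.3 ± 2.41 RPKM in WT-Bleo and 40.7 ± 4.21 in KO-Bleo (adjusted p = 0.0865; limma-voom adjusted p = 0.0122). None of the 3 had groups that overlapped, and each missed the threshold in the limma fit. Hmgcs1, the synthase whose promoter is shown above and which was chosen after its values were seen, was at 49.3 ± 1.11 RPKM in WT-Bleo and 58.8 ± 5.13 in KO-Bleo (adjusted p = 0.201). Under saline the median over the 23 genes was 0.10, with 3 higher and 0 lower at an unadjusted p under 0.05, and no member's interaction was called.

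Genes of fatty acid and phospholipid synthesis followed. Of 22 genes, KO-Bleo was higher for 12 and lower for 0 at an unadjusted p under 0.05, 1 (Lpcat1) was called, and limma-voom called 10. The median was 0.25 under bleomycin and 0.27 under saline, where 7 of the 22 were higher and 1 lower. In KO-Sal 1 library stood apart, as replicate 10 had a mean log2 level of 6.00 over this list, with 5.11 to 5.32 in the other 3, and of 5.16 over 12 adipocyte genes, with 2.79 to 2.92 in the others. Without it the saline median of the list was 0.18, an alternative added after these levels were seen. Acly, which supplies cytosolic acetyl-CoA, was at 50.9, 48.2, 47.9 and 51.5 RPKM in WT-Bleo and at 60.4, 64.7, 62.9 and 59 in KO-Bleo (log2 fold change 0.31, SE 0.05, adjusted p = 0.0623), and Fads1, a fatty acid desaturase, was at 38.2 ± 0.569 RPKM in WT-Bleo and 49.2 ± 5.57 in KO-Bleo (adjusted p = 0.125). Over the adipocyte genes, which mark another cell type that makes fat, the level was 2.03 to 2.55 in KO-Bleo, 1.79 to 2.60 in WT-Bleo and 2.37 to 2.70 in WT-Sal, with 2 higher at an unadjusted p under 0.05. Its part in the lipid genes was not tested.

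Of the 20 genes that rose, the 10 not yet described have other roles. Mme, neprilysin, a cell-surface protease that degrades small peptides such as substance P, was at 15.7, 15.5, 18.2 and 18.5 RPKM in WT-Bleo and at 29.8, 34.7, 31.3 and 24.4 in KO-Bleo (log2 fold change 0.78, SE 0.11, adjusted p = 0.0274). Cpm, a membrane carboxypeptidase that trims peptides, was at 22.8, 20.7, 22.8 and 23.4 RPKM in WT-Bleo and at 34.4, 40.9, 36.9 and 32 in KO-Bleo (log2 fold change 0.66, SE 0.08, adjusted p = 0.0184). The groups of neither gene overlapped, and with saline both were at higher means, of 48.6 and 61.3 RPKM in WT-Sal and at 43.7 and 61.1 RPKM in KO-Sal. Over 25 listed genes of neprilysin and vasoactive peptides, 5 were higher and 9 lower at an unadjusted p under 0.05, and Mme alone was called. Among the lower ones, Ace, which makes angiotensin II, was at 171 ± 20.9 RPKM in WT-Bleo and 137 ± 8.72 in KO-Bleo (adjusted p = 0.226), and Edn1, endothelin 1, at 44.7 ± 6.53 RPKM in WT-Bleo and 32.6 ± 3.63 in KO-Bleo (adjusted p = 0.184).

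Pigr, the receptor that carries immunoglobulin A across epithelium, was at 31.9, 26.7, 28.7 and 26 RPKM in WT-Bleo and at 55.6, 44.2, 49.9 and 67.5 in KO-Bleo, a 1.87-fold rise with replicate 16 the highest (log2 fold change 0.90, SE 0.12, adjusted p = 0.025). Itih4, a heavy chain of the inter-alpha-trypsin inhibitor family that is an acute phase protein of liver, was at 13, 14.4, 11.3 and 12.7 RPKM in WT-Bleo and at 20.6, 26.9, 23.7 and 22.3 in KO-Bleo (log2 fold change 0.81, SE 0.10, adjusted p = 0.0184). Of 20 acute phase genes, Itih4 among them, 1 was higher and 3 lower at an unadjusted p under 0.05, and of 17 club and goblet cell genes, Pigr among them, 5 were higher and 1 lower. Within the latter, Clca1, a secreted goblet cell protease, was at 15, 54.1, 40.8 and 26.3 RPKM in WT-Bleo and at 190.2, 114, 124 and 67 in KO-Bleo (log2 fold change 1.88, SE 0.40, adjusted p = 0.103), and Muc5ac, a gel-forming mucin, at 1.27 ± 0.143 RPKM in WT-Bleo and 2.92 ± 0.727 in KO-Bleo (adjusted p = 0.0856; limma-voom adjusted p = 0.00553). Bpifa1, a secreted airway lipid-binding protein, went the other way at 627, 299.8, 287 and 381 RPKM in WT-Bleo and 191, 164, 111 and 130.2 in KO-Bleo (log2 fold change -1.37, SE 0.25, adjusted p = 0.0728). The groups of all 3 did not overlap, but none was called.

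Dram1, a p53-induced regulator of autophagy, was at 104 ± 4.34 RPKM in WT-Bleo and 139 ± 3.89 in KO-Bleo and rose 1.34-fold (adjusted p = 0.0184). Sgpp2, which removes phosphate from sphingosine 1-phosphate, was at 9.7 ± 1.59 RPKM in WT-Bleo and 17 ± 1.7 in KO-Bleo and rose 1.7-fold (adjusted p = 0.0488). Car8, a carbonic anhydrase relative without enzyme activity, was at 24.7 ± 1.53 RPKM in WT-Bleo and 36 ± 1.58 in KO-Bleo (adjusted p = 0.0184). For none of the 3 did the groups overlap. Mlc1, a membrane protein studied mainly in astrocytes, was at 20.1 ± 0.819 RPKM in WT-Bleo and 29 ± 0.636 in KO-Bleo (adjusted p = 0.0184), and Hnmt, which inactivates histamine, was at 12.1 ± 1.04 RPKM in WT-Bleo and 16.9 ± 0.388 in KO-Bleo (adjusted p = 0.0491). Pisd-ps1, a pseudogene copy of the mitochondrial enzyme that makes phosphatidylethanolamine, was at 40.9 ± 2.81 RPKM in WT-Bleo and 69.8 ± 10.1 in KO-Bleo (adjusted p = 0.025), and its reads cannot be separated with certainty from those of near-identical copies.

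Genes that fell in KO-Bleo included proteins of the extracellular matrix. Lox, the enzyme that cross-links collagen and elastin, was at 49.8, 64.6, 41 and 48.2 RPKM in WT-Bleo and at 28, 25.1, 24.6 and 32.2 in KO-Bleo, a 1.81-fold decrease (log2 fold change -0.85, SE 0.13, adjusted p = 0.0488). The highest WT-Bleo value was that of the shallow replicate 6, and the groups did not overlap without it either (log2 fold change -0.69, adjusted p = 0.0319, with both shallow libraries left out). Fbln2, fibulin 2, which binds elastic fibres and basement membrane, was at 11.3, 12.2, 9.36 and 9.82 RPKM in WT-Bleo and at 4.95, 4.68, 5.43 and 5.55 in KO-Bleo (log2 fold change -0.92, SE 0.10, adjusted p = 0.0184). Mgp, matrix Gla protein, an inhibitor of calcification, was at 2528, 3229, 2251 and 2397 RPKM in WT-Bleo and at 1461, 1476, 1568 and 1757 in KO-Bleo (log2 fold change -0.72, SE 0.11, adjusted p = 0.0488). In each of the 3 every KO-Bleo library was below every WT-Bleo library, and the SD was smaller in KO-Bleo.

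The wider matrix lists were lower without reaching the threshold. Of 21 fibrillar collagens and structural matrix genes, 14 were lower and 0 higher at an unadjusted p under 0.05, where 6.36% of all genes were lower, 0 were called by limma and 5 by limma-voom, and the median log2 fold change was -0.39. Their mean log2 level was 5.49, 5.59, 5.60 and 5.96 in KO-Bleo and 5.83 to 6.09 in WT-Bleo, so replicate 16 lay within the WT-Bleo range. Without it the median was -0.49, and 3 of the 21 were called, a fit singled out after these levels were seen. With any other single library left out, at most 1 was called, and the median was between -0.44 and -0.31. Eln, elastin, was at 172, 279, 181 and 202 RPKM in WT-Bleo and at 104, 100.3, 98 and 132 in KO-Bleo (log2 fold change -0.92, SE 0.15, adjusted p = 0.0557), and was the 1 of the 21 called with both shallow libraries left out (adjusted p = 0.0329). Fn1, fibronectin, was at 249, 295, 199 and 244 RPKM in WT-Bleo and at 132, 117, 149 and 171 in KO-Bleo (log2 fold change -0.79, SE 0.14, adjusted p = 0.062). Neither gene's groups overlapped. Sparc, a collagen-binding glycoprotein, was at 1206 ± 124 RPKM in WT-Bleo and 827 ± 99.2 in KO-Bleo (adjusted p = 0.0736) and Col5a2, a chain of the collagen that starts fibrils, at 69.5 ± 8.08 RPKM in WT-Bleo and 44.8 ± 8.46 in KO-Bleo (adjusted p = 0.101).

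Other matrix classes had negative medians as well. Of 20 proteases and inhibitors 12 were lower and 0 higher at an unadjusted p under 0.05, with 0 called by limma and 8 by limma-voom, and Timp1, an inhibitor of matrix metalloproteinases, was at 72, 95.8, 55 and 81.5 RPKM in WT-Bleo and at 38, 28.5, 38.9 and 43.9 in KO-Bleo (log2 fold change -0.997, adjusted p = 0.062). Timp3, the inhibitor held in the matrix, was at 380.5 ± 23.8 RPKM in WT-Bleo and 286 ± 30.2 in KO-Bleo (adjusted p = 0.0888). Of 17 collagen processing and cross-linking genes 8 were lower, 0 higher and 1 (Lox) called, with Loxl1 at 31.6 ± 3.73 RPKM in WT-Bleo and 23.6 ± 2.22 in KO-Bleo (adjusted p = 0.147) and Loxl2 at 22.6 ± 1.78 RPKM in WT-Bleo and 16.5 ± 2.82 in KO-Bleo (adjusted p = 0.17), both relatives of Lox. Of 17 basement membrane genes 9 were lower, 0 higher and 0 called (3 by limma-voom), and Col4a1, a chain of its collagen network, was at 288 ± 20.8 RPKM in WT-Bleo and 197 ± 28.8 in KO-Bleo (adjusted p = 0.0686). Of 13 contractile genes 9 were lower, 0 higher and 0 called (2 by limma-voom), and Tagln, transgelin of smooth muscle and myofibroblasts, was at 114 ± 24.3 RPKM in WT-Bleo and 67 ± 11.4 in KO-Bleo (adjusted p = 0.119).

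These lists had negative medians under saline too. The median log2 fold change of KO-Sal against WT-Sal was -0.28 over the structural genes, with 12 of 21 lower and 2 higher at an unadjusted p under 0.05, where 5.19% of all genes were lower. It was -0.20 over the proteases and inhibitors (6 of 20 lower), -0.11 over the cross-linking genes (6 of 17), -0.12 over the basement membrane genes (6 of 17) and -0.27 over the contractile genes (6 of 13). The mean log2 level of the structural genes was 4.63 to 4.79 in 3 KO-Sal libraries and 5.11 in replicate 12, within the 5.03 to 5.16 of WT-Sal, and the saline median was -0.37 without that replicate. The contractile median was -0.14 without KO-Sal replicate 10. Lox was at 19.3 ± 3.2 RPKM in WT-Sal and 10.6 ± 2.83 RPKM in KO-Sal (a difference of -0.83 on the log2 scale, unadjusted p = 0.000699, adjusted p = 0.0765), and its interaction was -0.02 on the log2 scale (adjusted p = 0.982). Fbln2 did not share this, at 4.02 ± 0.124 RPKM in WT-Sal and 4.11 ± 1.17 RPKM in KO-Sal, and its interaction was called (-0.92, adjusted p = 0.0486). No interaction was called in any of the 5 lists.

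**Figure D3:**
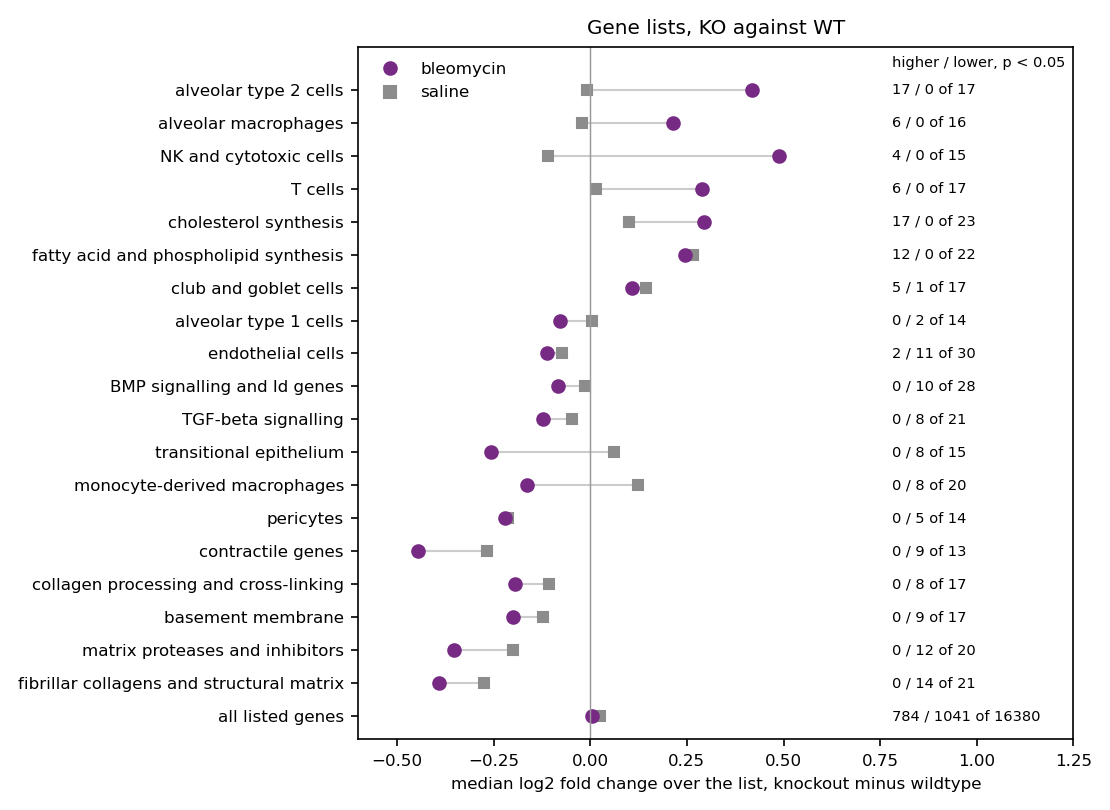
Median log2 fold change of knockout against wildtype over gene lists picked from the 54 drawn up, under bleomycin (purple circles) and under saline (grey squares). Beside each list are the numbers of genes higher and lower under bleomycin at an unadjusted p under 0.05, and the last row holds all 16380 genes. Lists not shown include B and plasma cells (0.43 under bleomycin and 0.08 under saline) and glucocorticoid-induced genes (-0.24 and -0.33). Alveolar type 2 genes stand at 0.42 under bleomycin and -0.01 under saline, whereas the structural matrix genes stand at -0.39 and -0.28.

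Id1 and Id3, proteins that block the DNA binding of helix-loop-helix factors and are direct targets of bone morphogenetic protein (BMP) signalling, fell together. Id1 was at 73.6, 78, 79.4 and 70.7 RPKM in WT-Bleo and at 51.3, 48.9, 51.1 and 58.3 in KO-Bleo (log2 fold change -0.52, SE 0.07, adjusted p = 0.025). Id3 was at 87, 93.8, 98.7 and 90.8 RPKM in WT-Bleo and at 53.8, 62, 54.4 and 68 in KO-Bleo (log2 fold change -0.63, SE 0.08, adjusted p = 0.025). For both the groups were apart, and KO-Bleo replicate 16 was the highest of its group. With saline Id1 was at 66.8 ± 12.6 RPKM in WT-Sal and 66.2 ± 12.8 RPKM in KO-Sal, and Id3 at 83.1 ± 11.5 RPKM in WT-Sal and 93.6 ± 18.4 RPKM in KO-Sal, so the KO-Bleo means were the lowest of the 4 groups, although neither interaction was called (adjusted p = 0.348 for Id1 and 0.0957 for Id3). Of the 28 listed genes of BMP signalling, 10 were lower and 0 higher at an unadjusted p under 0.05, 2 were called and limma-voom called 7. Those lower include antagonists: Fst, follistatin, which binds activins, was at 7.56, 4.96, 5.1 and 7.81 RPKM in WT-Bleo and at 2.81, 1.95, 2.8 and 3.19 in KO-Bleo (log2 fold change -0.98, SE 0.17, adjusted p = 0.0594), and Fstl1, a secreted relative, was at 122 ± 13.7 RPKM in WT-Bleo and 77.5 ± 11.6 in KO-Bleo (adjusted p = 0.0594).

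In the TGF-beta list, the pathway that drives matrix production by fibroblasts, 8 of 21 genes were lower and 0 higher at an unadjusted p under 0.05, and 0 were called (4 by limma-voom). Inhba, the subunit of activin A, was at 3.08 ± 0.249 RPKM in WT-Bleo and 1.72 ± 0.289 in KO-Bleo (adjusted p = 0.0885; limma-voom adjusted p = 0.0012). Sfrp1, a secreted WNT antagonist made by fibroblasts, was at 38.8, 49.6, 33.1 and 45.2 RPKM in WT-Bleo and at 23.9, 24.7, 25.2 and 30.6 in KO-Bleo (log2 fold change -0.65, SE 0.13, adjusted p = 0.0876). Its groups did not overlap, and its interaction was called (-0.83, adjusted p = 0.0329), with 5.76 RPKM in WT-Sal and 6.66 in KO-Sal. Sfrp1 is on the WNT list, where 5 of 29 genes were lower and 0 higher at an unadjusted p under 0.05 (median -0.08 under bleomycin and 0.03 under saline). Of 16 lung fibroblast genes 3 were higher and 2 lower at that threshold (median 0.14 under bleomycin).

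Vessel and pericyte genes were also among those that fell. Rgs5, a regulator that shuts off G protein signals and marks pericytes, was at 15.2, 15.3, 16.1 and 14.7 RPKM in WT-Bleo and at 7.72, 6.37, 5.17 and 8.28 in KO-Bleo, a 2.1-fold decrease (log2 fold change -1.07, SE 0.12, adjusted p = 0.0184). The WT-Bleo libraries lay within 2 RPKM of each other, and the lowest KO-Bleo value was that of the shallow replicate 15 (log2 fold change -0.96, adjusted p = 0.00893, with both shallow libraries left out). With saline it was at 3.07 ± 0.28 RPKM in WT-Sal and 4.65 ± 1.63 RPKM in KO-Sal, and the interaction was -1.49 on the log2 scale (adjusted p = 0.0329). Of the 18 RGS genes 4 were lower and 0 higher at an unadjusted p under 0.05, among them Rgs16 at 6.74 ± 2.12 RPKM in WT-Bleo and 2.56 ± 1.05 in KO-Bleo (adjusted p = 0.101) and Rgs4 at 12.8 ± 1.36 RPKM in WT-Bleo and 8.43 ± 1.45 in KO-Bleo (adjusted p = 0.123). The median log2 fold change over the 18 was 0.02, with 10 members above 0 and 8 below. The high value of Rgs16 in WT-Bleo came from the shallow replicate 6, and its log2 fold change was -0.78 with both shallow libraries left out and -1.13 with them. Of 14 pericyte genes, Rgs5 among them, 5 were lower and 0 higher at an unadjusted p under 0.05. The median log2 fold change of these 14 was -0.22 under bleomycin and -0.21 under saline, where 4 were lower and 0 higher. The saline median was -0.09 without KO-Sal replicate 10 and -0.32 without KO-Sal replicate 12.

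Esm1, endocan, a proteoglycan secreted by endothelial tip cells, was at 4.23, 5.51, 4.12 and 3.1 RPKM in WT-Bleo and at 1.08, 1.68, 0.77 and 1.11 in KO-Bleo, a 2.42-fold decrease (log2 fold change -1.28, SE 0.17, adjusted p = 0.025). It was lower with saline too, at 11 ± 1.71 RPKM in WT-Sal and 6.63 ± 3.34 RPKM in KO-Sal (unadjusted p = 0.0182), where the groups overlapped. Jam2, an adhesion molecule of endothelial junctions, was at 28.6, 30.6, 28.4 and 28.5 RPKM in WT-Bleo and at 20.4, 19.8, 23.4 and 20.3 in KO-Bleo (log2 fold change -0.45, SE 0.07, adjusted p = 0.0391). Of 30 endothelial genes 11 were lower and 2 higher at an unadjusted p under 0.05, 1 was called and limma-voom called 8. Gpihbp1, which holds lipoprotein lipase on capillaries, was at 62.2 ± 8.16 RPKM in WT-Bleo and 42 ± 4.84 in KO-Bleo (adjusted p = 0.0865), and Sox18, a vascular transcription factor, at 30.9 ± 3.9 RPKM in WT-Bleo and 21.6 ± 2.06 in KO-Bleo (adjusted p = 0.0888; adjusted p = 0.0406 without both shallow libraries). The mean log2 level of the endothelial list was 4.76 to 4.85 in KO-Bleo and 4.93 to 5.04 in WT-Bleo.

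**Figure D4:**
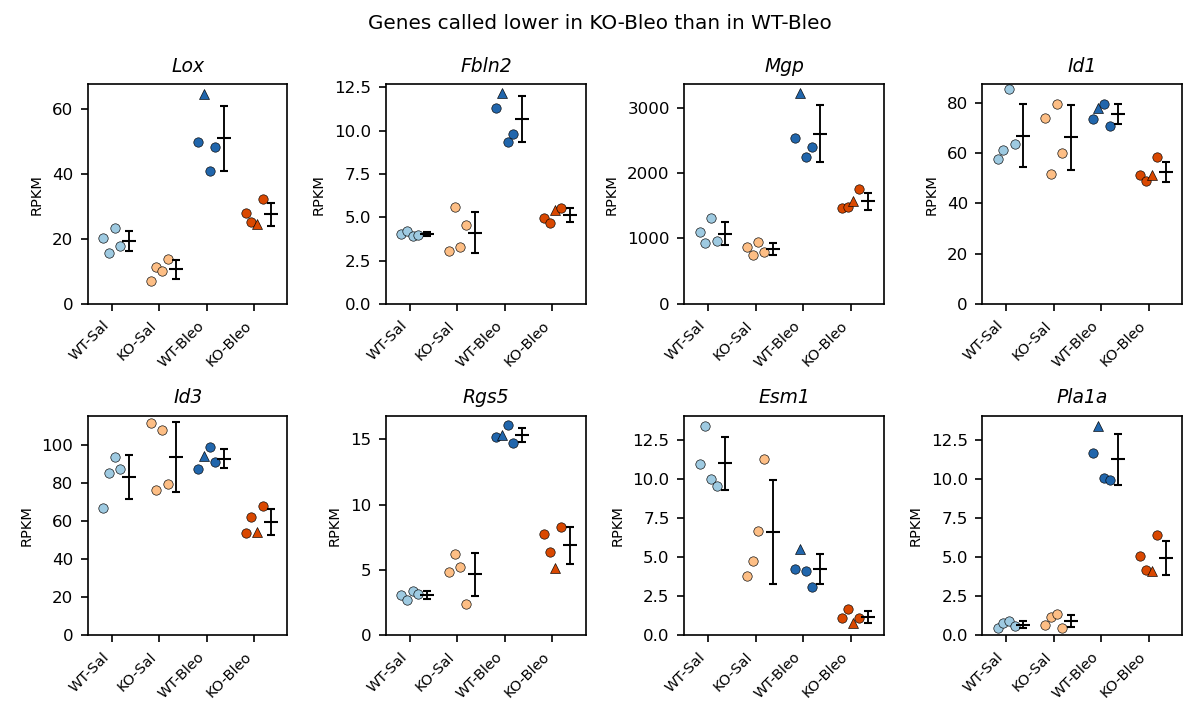
RPKM of 8 genes that fell in KO-Bleo in all 16 libraries, with points for libraries, triangles for the 2 shallow ones, and bars for the mean and SD of 4 libraries; every axis starts at 0. Lox, Fbln2, Mgp, Rgs5 and Pla1a are higher in WT-Bleo than in WT-Sal and lower in KO-Bleo than in WT-Bleo, Id1 and Id3 have their lowest means in KO-Bleo, and Esm1 is lower with bleomycin than with saline in both genotypes.

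The remaining 7 genes that fell have varied roles. Chl1, a neural cell adhesion molecule of the L1 family, was at 6.25, 6.62, 5.94 and 8.39 RPKM in WT-Bleo and at 3.33, 1.9, 2.51 and 3.05 in KO-Bleo (log2 fold change -1.08, SE 0.15, adjusted p = 0.0274). Pla1a, a phospholipase that acts on phosphatidylserine, was at 11.7, 13.4, 10.1 and 9.95 RPKM in WT-Bleo and at 5.09, 4.2, 4.1 and 6.41 in KO-Bleo (log2 fold change -1.05, SE 0.14, adjusted p = 0.025). Both were close to 0 with saline, at 0.106 and 0.683 RPKM in WT-Sal and 0.129 and 0.914 RPKM in KO-Sal, and both interactions were called (-1.11, adjusted p = 0.024 for Chl1 and -1.22, adjusted p = 0.036 for Pla1a). Emp1, an epithelial membrane protein, was at 242 ± 8.86 RPKM in WT-Bleo and 175 ± 13.9 in KO-Bleo and fell 1.38-fold (adjusted p = 0.0354). Mest and Peg3, imprinted genes expressed from the paternal copy and active in growing tissue, were at 10.3, 12.4, 13.8 and 12.5 and at 3.76, 3.25, 2.79 and 3.79 RPKM in WT-Bleo and at 6.68, 4.38, 6.62 and 6.99 and at 1.33, 1.59, 1.34 and 1.61 RPKM in KO-Bleo, in that order. Their groups did not overlap (adjusted p = 0.0488 for Mest and 0.0323 for Peg3).

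The 2 largest fold changes of the 35 were found under saline too. Erdr1, which lies at the end of the X chromosome in a region shared with the Y and has near-identical copies, so that its counts are uncertain, was at 12.5, 7.4, 15.2 and 6.16 RPKM in WT-Bleo and at 0.65, 0.179, 1.81 and 0.359 in KO-Bleo (log2 fold change -2.70, SE 0.32, adjusted p = 0.0184). With saline it was at 13.2 ± 3.07 RPKM in WT-Sal and 0.531 ± 0.546 RPKM in KO-Sal (adjusted p = 0.000491), and it was the only gene called in both comparisons, of the 8 (0.0488%) called under saline. That count was 722 without KO-Sal replicate 12, 5 without KO-Sal replicate 11 and 3 without WT-Sal replicate 1. Tmem267, a membrane protein on chromosome 13, was at 8.75, 4.95, 8.27 and 7.62 RPKM in WT-Bleo and at 0.971, 0.89, 2.42 and 1.47 in KO-Bleo (log2 fold change -1.80, SE 0.22, adjusted p = 0.0184), and at 6.54 ± 0.558 RPKM in WT-Sal and 2.41 ± 1.56 RPKM in KO-Sal (unadjusted p = 0.000434, adjusted p = 0.0678). Under saline, 16.2% of all genes had an unadjusted p under 0.05 in either direction. Of the 35 called genes, 9 passed there with the same direction as under bleomycin. These were Erdr1, Tmem267, Esm1, Mest, Lox, Mgp and Emp1 among those that fell and Pisd-ps1 and Pigr among those that rose, while Lamp3 had the opposite direction. The interaction was called for 17 of the 35, 13 that rose and 4 that fell, and for 0.220% of all genes. That test shares the bleomycin libraries that selected the 35, so a larger share among them follows in part from the selection.

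Among the called genes, Esm1 and Tmem267 lie within 10 Mb of the deleted gene on chromosome 13. Idi1 and Lpcat1 are on the same chromosome but farther away, and the share of all listed genes on it is not given here. On GRCm38, which is the mm10 build of the deposited table, Il31ra spans 112521931 to 112580732 of chromosome 13, Esm1 spans 113209659 to 113218104 and Tmem267 spans 119488086 to 119610459. Of the 76 other listed genes that start within 10 Mb of the Il31ra start, 6 (7.89%) were lower in the knockout at an unadjusted p under 0.05 under both bleomycin and saline and 0 were higher under both, whereas 352 of all genes (2.15%) passed in both with the same direction, 180 of them lower. The 6 were Esm1, Tmem267, Fst, Ccl28, a chemokine of mucosal epithelium, Skiv2l2, an RNA helicase of the nuclear exosome, and Arl15, a small GTPase, the last 2 named after their values were seen. Skiv2l2 was at 26.1 ± 1.96 RPKM in WT-Bleo and 20.7 ± 1.16 in KO-Bleo (unadjusted p = 0.00125; 0.00789 with saline) and Arl15 at 21.1 ± 2.51 RPKM in WT-Bleo and 16.4 ± 0.783 in KO-Bleo (unadjusted p = 0.0033; 0.00187 with saline). Hmgcs1, also in the window, was at a log2 fold change of 0.25 under bleomycin (unadjusted p = 0.00488) and 0.08 under saline (unadjusted p = 0.371). Sequence differences around the deletion were not measured here, and their part in these genes was not tested.

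**Figure D5:**
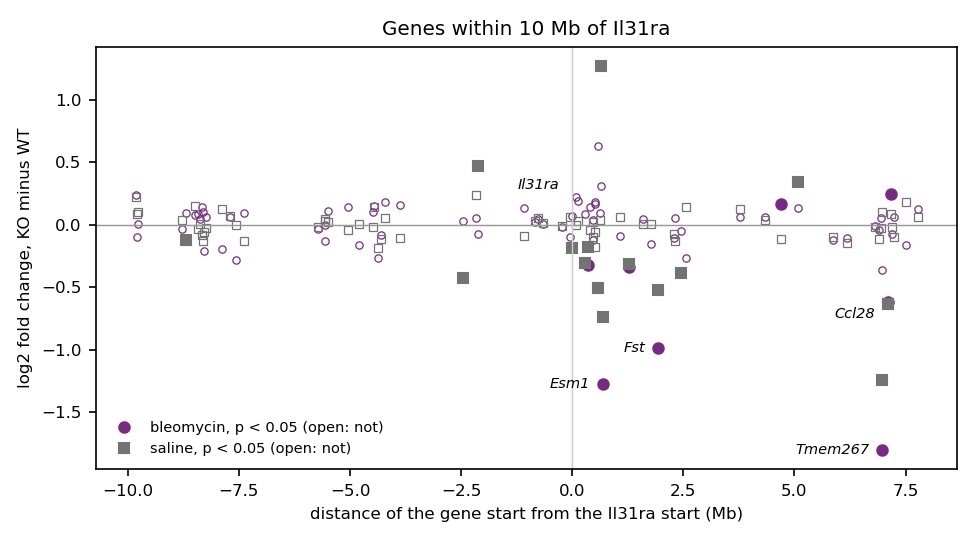
Log2 fold change of knockout against wildtype under bleomycin (purple circles) and saline (grey squares) for the genes within 10 Mb of Il31ra, against the distance of each gene's start from the Il31ra start in Mb; filled symbols have an unadjusted p under 0.05. Esm1, Fst, Tmem267 and Ccl28 are filled and below 0 under both treatments, with Tmem267 the lowest at -1.80 under bleomycin.

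Genes that the study names for mouse lung were picked from these same libraries, which makes their direction here no independent evidence. The study has other measurements too. By RT-PCR of lung RNA it reports Col1a1, Col3a1, Fn1, Mmp13, Timp1, Il6, Krt5 and Krt14 as lower in knockout than in wildtype mice given bleomycin. By ELISA of lung lysates it reports the same for IL-6 and MCP1 (Ccl2) protein. Those measurements were not examined here. Apart from 3 channel genes, they are taken here as 8 matrix-associated genes and 12 pooled from its other groups, with Il6 in both. Of the 8 matrix-associated genes, all 8 had negative log2 fold changes, 7 were lower at an unadjusted p under 0.05, 0 were called by limma and 3 by limma-voom. Col1a1 was at 99.4 ± 16.8 RPKM in WT-Bleo and 62.7 ± 16.1 in KO-Bleo (adjusted p = 0.17; limma-voom adjusted p = 0.209) and Col3a1 at 304 ± 31.7 RPKM in WT-Bleo and 237 ± 46.5 in KO-Bleo (adjusted p = 0.323), both chains of fibrillar collagens. Mmp13, a collagenase, was at 2.48 ± 0.0982 RPKM in WT-Bleo and 1.42 ± 0.285 in KO-Bleo (adjusted p = 0.126), Arg1, arginase 1, at 15.4 ± 3.3 RPKM in WT-Bleo and 9.12 ± 4.01 in KO-Bleo (adjusted p = 0.303) and Ereg, epiregulin, at 3.36 ± 0.845 RPKM in WT-Bleo and 1.59 ± 0.696 in KO-Bleo (adjusted p = 0.208). Il6 was the exception, at 1.83, 0, 2.39 and 1.42 RPKM in WT-Bleo, 0 in the shallow replicate 6, and at 0.85, 0.7, 0.965 and 1.12 in KO-Bleo (adjusted p = 0.821). Without both shallow libraries its log2 fold change was -0.60 (adjusted p = 0.089).

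Of the 12 pooled genes, 7 were lower at an unadjusted p under 0.05, Rgs5 was called, limma-voom called 6, and 3 were called with both shallow libraries left out. Krt5 and Krt14, keratins of basal epithelium, were at 3.09, 1.51, 1.7 and 3.76 and at 2.76, 0, 1.26 and 2.12 RPKM in WT-Bleo and at 1.83, 1.29, 0 and 0.795 and at 0.782, 0.615, 0 and 0.603 RPKM in KO-Bleo, with 0 reads in a shallow library of one group or both (adjusted p = 0.363 for Krt5 and 0.556 for Krt14). Krt4 at 0.53 ± 0.47 RPKM in WT-Bleo and 0.197 ± 0.136 in KO-Bleo and Krt20 at 0.381 ± 0.461 RPKM in WT-Bleo and 0.124 ± 0.085 in KO-Bleo rested on still fewer reads, and for these a difference was not detectable at this depth (adjusted p = 0.584 and 0.637). Calcb, a calcitonin gene-related peptide, was at 2.21, 6.88, 2.17 and 2.24 RPKM in WT-Bleo and at 0.769, 1.06, 1.68 and 0.858 in KO-Bleo (adjusted p = 0.267). The high WT-Bleo value is that of the shallow replicate 6, and without both shallow libraries Calcb was at a log2 fold change of -0.76 (adjusted p = 0.0156). Its receptor-related gene Calcr was at 0.784 ± 0.364 RPKM in WT-Bleo and 0.491 ± 0.378 in KO-Bleo (adjusted p = 0.609), Ccl28 at 1.12 ± 0.454 RPKM in WT-Bleo and 0.372 ± 0.254 in KO-Bleo (adjusted p = 0.274) and Ccl2, a monocyte chemokine, at 14.8 ± 1.34 RPKM in WT-Bleo and 11 ± 3.01 in KO-Bleo (adjusted p = 0.354). The study also names 3 potassium channel genes. Kcna2 was at 0.573 ± 0.118 RPKM in WT-Bleo and 0.913 ± 0.281 in KO-Bleo (adjusted p = 0.462; limma-voom adjusted p = 0.0265), Kcnh4 at 0.0896 ± 0.0679 RPKM in WT-Bleo and 0.216 ± 0.0726 in KO-Bleo (adjusted p = 0.51) and Kcnu1 at 0.0857 ± 0.0609 RPKM in WT-Bleo and 0.356 ± 0.229 in KO-Bleo (adjusted p = 0.381), all of them low genes.

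The lists of monocyte-derived macrophages, T cells and NK cells held no gene called by limma, and 2, 1 and 0 genes, in that order, called by limma-voom. Of 20 genes of monocyte-derived macrophages 8 were lower and 0 higher at an unadjusted p under 0.05 (median -0.17 under bleomycin and 0.12 under saline), with C1qb, a complement subunit, at 189.9 ± 16.6 RPKM in WT-Bleo and 139 ± 30.2 in KO-Bleo (adjusted p = 0.281) and Apoe, a lipid carrier, at 579 ± 69.2 RPKM in WT-Bleo and 401 ± 97.4 in KO-Bleo (adjusted p = 0.236). Of 17 T cell genes 6 were higher and 0 lower, and of 15 genes of NK and cytotoxic cells 4 were higher and 0 lower, with medians of 0.29 and 0.49. These medians fell to 0.12 and 0.20 without both shallow libraries, whose values lie at the ends of their groups for several of these genes. Klre1, an NK cell receptor, was at 1.12, 0, 1.77 and 1.31 RPKM in WT-Bleo and at 1.91, 2.46, 7.98 and 2.21 in KO-Bleo, the extremes being replicates 6 and 15 (log2 fold change 1.10, and 0.42 without them). Nkg7, a granule protein of cytotoxic cells, was at 3.78, 4.07, 4.93 and 5.31 RPKM in WT-Bleo and at 5.33, 6.9, 11 and 8.96 in KO-Bleo (adjusted p = 0.208).

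From the largest fold changes that did not pass, 3 further genes are given here. They were taken from genes whose groups did not overlap, as held for 8.48% of all genes. Other genes that met the same rule are not named. Acoxl, a relative of acyl-CoA oxidases, was at 5.75, 3.47, 5.87 and 6.13 RPKM in WT-Bleo and at 11.3, 15.7, 15 and 9.48 in KO-Bleo (log2 fold change 1.14, SE 0.19, adjusted p = 0.0579). It was at 27.8 RPKM in WT-Sal and 28 in KO-Sal, its interaction was called (1.12, adjusted p = 0.0397), and its adjusted p was 0.0406 without both shallow libraries. Lrat, which esterifies retinol for storage, was at 6.64, 8.35, 5.43 and 4.25 RPKM in WT-Bleo and at 10.6, 18.9, 13 and 10.5 in KO-Bleo (log2 fold change 0.99, SE 0.21, adjusted p = 0.114). Krt79, a keratin on the alveolar macrophage list, was at 0.638, 0, 0.771 and 0.839 RPKM in WT-Bleo, with 0 reads in replicate 6, and at 2.19, 3.67, 2.7 and 1.33 in KO-Bleo (log2 fold change 1.15, SE 0.25, adjusted p = 0.118).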

How the data were processed

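Whole-lung RNA was sequenced on an Illumina HiSeq. Per the labels and the submitters' processing notes, the authors used bcl2fastq, CASAVA 1.8, TopHat, DESeq and the mouse build mm10, and the sources used here give no other versions. The deposited table holds RPKM values made by the authors for 16 libraries; its unit is not named in the table. Whole reads per gene were recovered from the steps between values, with 100% of the 16380 genes coming out whole. Comparisons used limma 3.58.1 in R 4.3.3, with an intensity trend and robust variances, on log2(RPKM + 1), with no filter on low values and Benjamini-Hochberg adjustment over all genes. KO-Bleo was compared with WT-Bleo in its 8 libraries, KO-Sal with WT-Sal in theirs, and the interaction in all 16. Alternatives were a pseudocount of 0.1 or 5, a minimum mean of 1 RPKM, limma-voom on the reads, median-of-ratios scaling, library quality weights, a spread shared by all libraries, and leaving libraries out. The procedure was tested on simulated data. Named genes were every called gene, up to 15 of the largest changes in each direction, up to 4 members of a list by smallest p, and genes the study names. The libraries were taken by their labels, whereas the 54 gene lists and their members were chosen with earlier results of these data known. Not every list is described. Gene positions and promoters are from RefSeq on GRCm38.p6, where 16363 of the 16380 gene IDs matched. Counting error depends on reads, so values in the 2 shallow libraries are the least precise.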

Additional observations from a re-analysis of the deposited data

Results flagged for a closer look

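In groups of 4 libraries, 1 library stood far from the other 3 in 15 of 216 tests, over 106 genes and the depth of the libraries, where chance gives about 1 in 20. WT-Bleo replicate 6, which is shallow, was high for Mlc1 (21.3 RPKM), Jam2 (30.6), Rgs16 (9.92), Calcb (6.88) and Skiv2l2 (29 RPKM), and low for Ccl28 (0.443) and Acoxl (3.47). KO-Bleo replicate 15, shallow as well with 1234598 reads, was high for Jam2 (23.4 RPKM) and Klre1 (7.98). KO-Bleo replicate 14 was high for Sftpa1 (1253 RPKM) and low for Emp1 (155), Mest (4.38) and Mmp13 (0.999). WT-Bleo replicate 5 was high for Gpihbp1 (74.3 RPKM).

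The genotype difference under bleomycin differed from that under saline, by the interaction test at an adjusted p under 0.05, for 19 of the genes named in the report and for 0.220% of all genes. Many of the named genes were selected in the bleomycin libraries that this test shares. On the log2 scale the interaction was above 0 for Acoxl (1.12), Hc (0.98), Mme (0.94), Lamp3 (0.93), Chil1 (0.86), Itih4 (0.84), Sgpp2 (0.80), Sftpa1 (0.73), Cpm (0.67), Slc34a2 (0.62), Sftpc (0.60), Mlc1 (0.59), Car8 (0.53) and Dram1 (0.50). It was below 0 for Rgs5 (-1.49), Pla1a (-1.22), Chl1 (-1.11), Fbln2 (-0.92) and Sfrp1 (-0.83).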

How the results depend on the processing

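With a pseudocount of 0.1 or 5, or median-of-ratios scaling, the number of genes called between KO-Bleo and WT-Bleo stayed within 1.5 times of 35. It was 67 with a minimum mean of 1 RPKM, 583 with limma-voom, 406 with library quality weights, 269 with a spread shared by all 16 libraries and 95 with both shallow libraries left out, and 0 to 47 with 1 library left out. In the limma fit 57.1% of the calls were higher in KO-Bleo, 45.6% with library quality weights and 43.1% with the shared spread. The number of genes at an unadjusted p under 0.05 and 1.5-fold, 207 as reported, was 394 and 59 with pseudocounts of 0.1 and 5, 461 with limma-voom, 133 with quality weights, and 146 to 322 with 1 library left out. The 8 calls under saline became 126 with limma-voom and 3 to 722 with 1 library left out, and the 36 interaction calls became 101 and 3 to 60. The cause of these changes was not tested. All 35 called genes kept their direction and an unadjusted p under 0.05 in each of the 16 alternatives, which reuse the libraries that selected them. No paired analysis was possible because no replicate number occurs in more than 1 group. Low genes are limited by the 604136 and 1234598 reads of the shallow libraries.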
